A study of Mus musculus with 2 samples.

Results

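The metalloproteases of the ADAM, ADAMTS and MMP families and their TIMP inhibitors were followed in mouse ureters at stage E14.5. Members were the genes whose name in the array files is Adam, Adamts or Mmp with a number and at most 1 further letter, together with Timp1, Timp2, Timp3 and Timp4. That rule used names and no measured value, but the set was chosen with earlier results of these data known. The members were 79 genes with 117 probes, among 29875 gene names and 39429 probes on the array. The knockout ureters carried Pax2-cre/+;Smad4(fl/fl) by the series title and Pax-cre/+;Smad4(fl/fl) by the sample labels. The control ureters carried Smad4(fl/?), with the second allele and the Cre status not given further. All embryos were of the NMRI strain, and each of 2 arrays held a knockout and a control sample in different dyes, the first female with the knockout in Cy3 and the second male with the knockout in Cy5. Pax2 is expressed in the nephric duct and the epithelium derived from it, but also in other cells of the early kidney. Cre would thus act in part of the tissue, and which cells of the ureter lost Smad4 was not measured here. The labels do not say how many embryos went into a sample or whether knockout and control embryos were littermates.

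These enzymes cut proteins outside the cell with a zinc ion at the active site. MMPs degrade collagens and other matrix proteins, ADAMs sit in the membrane and release growth factors and receptors from the cell surface, and ADAMTS enzymes are secreted and process procollagens and large proteoglycans. TIMPs block many of them. In developing ureters the matrix around epithelium and mesenchyme is built and remodelled while the muscular coat forms.

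Adamts16, a secreted ADAMTS enzyme whose gene lies in a blood pressure locus of the rat, fell in labelled knockout and was the 1 of 48 tested members that passed the test. A gene passed where limma, setting the log2 ratios of both arrays against 0, gave a p adjusted over all genes tested that was under 0.05. The remaining 47 tested members did not pass, and 31 members were not above background and were not tested. Over all 20104 genes tested, 0.328% passed in either direction, 0.0995% as lower in labelled knockout and 0.229% as higher. The 1 member at least 1.5-fold apart in the same direction on both arrays was again Adamts16, against 0.368% of all genes. Each direction follows the dyes in the labels, and the authors' deposited table runs the other way if its titles are read as knockout over control. Across the tested members the median log2 ratio of knockout over control was -0.073, and across all genes tested it was -0.0044.

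The normalised log2 intensity of Adamts16 was 7.66 and 7.73 in the knockout channels of replicates 1 and 2, against 8.57 and 8.69 in the control channels. Both knockout values lay below both control values, as for 15.3% of all genes tested. All 4 spots of the probe were well above background in each of the 4 channels. The log2 ratio of knockout over control was -0.91 on replicate 1 and -0.96 on replicate 2, a mean of -0.93 ± 0.034 (SD, n = 2 arrays) or 1.91-fold lower in labelled knockout (limma adjusted p = 0.0101, 95% interval -1.20 to -0.67). The authors' deposited table gives Adamts16 signed folds of 2.57 on replicate 1 and 2.52 on replicate 2. The test rests on 2 arrays with 1 residual degree of freedom per gene. Its p-values and intervals use a spread between these arrays that limma shares across genes, with 9.21 prior degrees of freedom. They thus do not reflect the spread of Adamts16 alone, and the spread between arrays may be technical. In whole ureters, fewer cells of a type and less RNA per cell cannot be told apart.

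**Figure D1:**
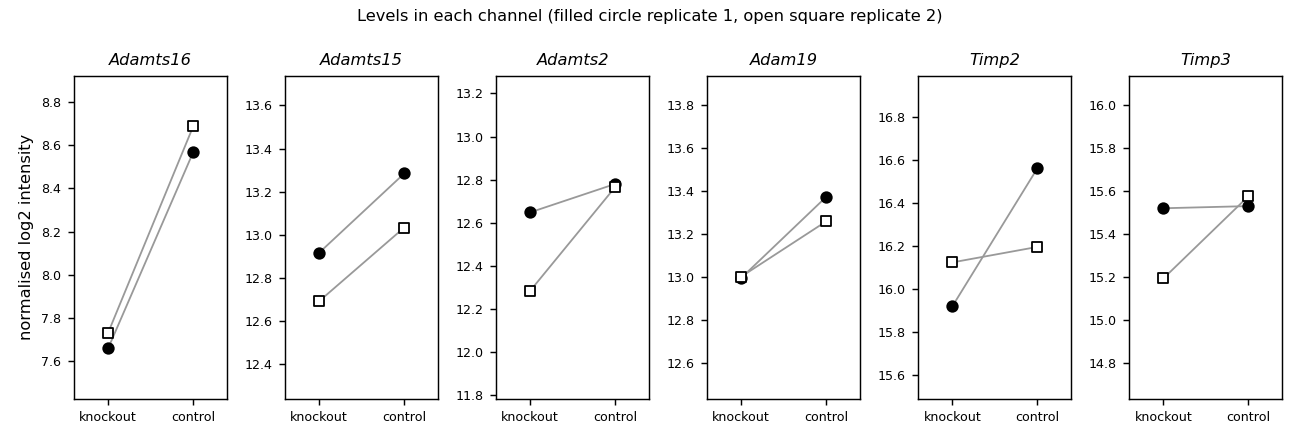
Normalised log2 intensity (vertical axis, each panel spanning 1.5 units) of 6 members in the knockout and control channels, with filled circles for replicate 1, open squares for replicate 2 and a line joining the channels of an array. Adamts16 is near 7.7 in both knockout channels and near 8.6 in both control channels, while Timp2 and Timp3 differ mainly on a single array.

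Adamts16 lies on mouse chromosome 13, and its value rests on a single probe, as its other probe was not above background. The probes of 3 members with a pair of probes are shown as examples, and in Adam19 and Timp2 the kept pair differed in size. Kept pairs of other members differed too, among them Adamts2 (mean log2 ratios -0.31 and -0.048) and Adamts8 (-0.23 and -0.0029). These are the first 30 of the 60 bases of each probe, copied from the array files in lower case and written 5′ to 3′, with positions on mm9.
Adamts16 used probe, chr13:70867148-70867207, minus strand: gatgggggctatgatatagggctttgcata
Adamts16 other probe, chr13:70906800-70906859, minus strand: catctctacctcctatatttctgtgcgcaa
Adam19 used probe, chr11:45960740-45960799, plus strand: catctatgcaaaatacttgaatgggccatg
Adam19 other probe, chr11:45874717-45874776, plus strand: ttgatagaactggggttcaggtccaagcat
Timp2 used probe, chr11:118163146-118163205, minus strand: ccgtgagcgttcttgtgccgtgttgatgcc
Timp2 other probe, chr11:118171964-118178741, minus strand: taattgcaggaaaggcagaaggagatggca

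The other Adamts16 probe, 39.7 kb upstream in the direction of transcription, was not well above background in any channel. It read -0.071 on replicate 1 and -0.28 on replicate 2, and with it in place of the used probe Adamts16 did not pass (log2 -0.18, limma adjusted p = 1.00). That probe gives no measured level to set against the first. In Adam19, the probe nearer the start of the gene, 86.0 kb away, read 0.023 and -0.12 where the used probe read -0.38 and -0.26. The other Adam19 probe was dim, with between 1 and 3 of its 4 spots above background in each channel. The second Timp2 probe spans far more of the genome than its 60 bases and so crosses a splice junction. It read -0.12 and -0.083 where the used probe read -0.64 and -0.072. Exons and untranslated parts of mm9 were not used here.

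Adamts16 kept its direction under each processing tried, with the sign set by the labelled dyes in all of them. Its log2 ratio was -1.35 with Agilent's processed signals (limma adjusted p = 3.42e-06), -1.14 with an offset of 0 (0.000236) and -1.35 with the authors' deposited values turned to knockout over control (3.40e-05). The deposited values were turned to the labelled dyes beforehand, so they bear on the size of the ratio and not on its direction. With median centring in place of loess no gene on the array passed in limma, while 347 had an unadjusted p under 0.05, and Adamts16 read -0.93 (adjusted p = 1.00). With dim probes kept again no gene passed, with 1097 at an unadjusted p under 0.05 (Adamts16, adjusted p = 0.415). As 4 unpaired channels it passed (adjusted p = 0.0220).

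**Figure D2:**
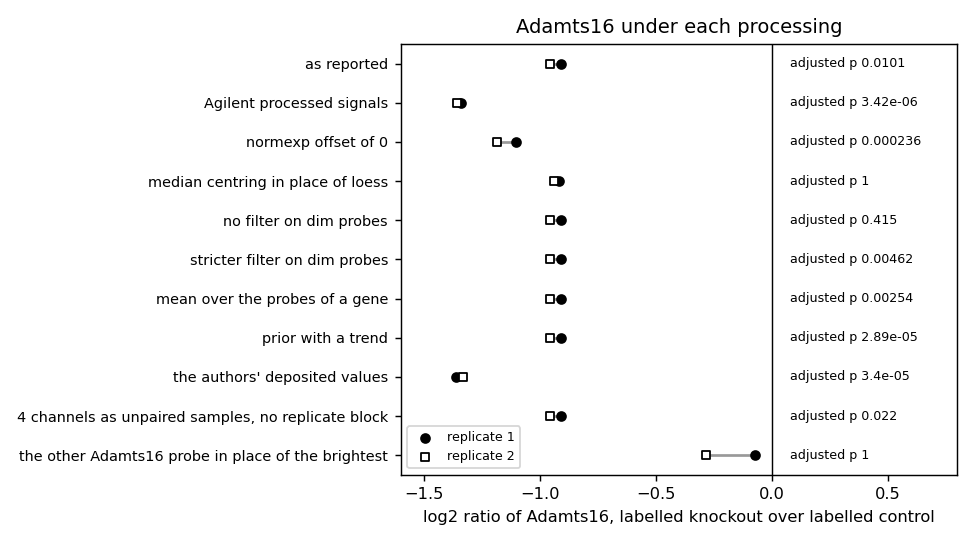
Log2 ratio of Adamts16 in labelled knockout over labelled control (horizontal axis) on replicate 1 (filled circles) and replicate 2 (open squares) under each processing, with the limma adjusted p beside each row. The values lie between -1.36 and -0.91 with the used probe and nearer 0 with the other probe, which was below background.

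Of all genes on the array, 67.3% were tested. Of 19 ADAMTS genes, 17 were tested, of 33 ADAM genes 18, of 23 MMP genes 9 and of the 4 TIMP genes all 4. Of the 48 tested members, 47 had their probe above background in all 4 channels. The exception was Mmp25, with 4 and 1 spots above background in knockout, against 3 and 2 in control, so that it was kept through the control channels alone. Of the 31 members not tested, 27 had no spot above background in any channel. Among the others, Adam18 and Adam26a had 1 such spot each, Adam3 had 4, all of them in the control channel of replicate 1, and Mmp24 had 4 spread over 3 channels. Not being above background gives no level of the transcript, and a weak probe and little transcript cannot be told apart here. With 2 arrays, the precision of each value is low.

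**Figure D3:**
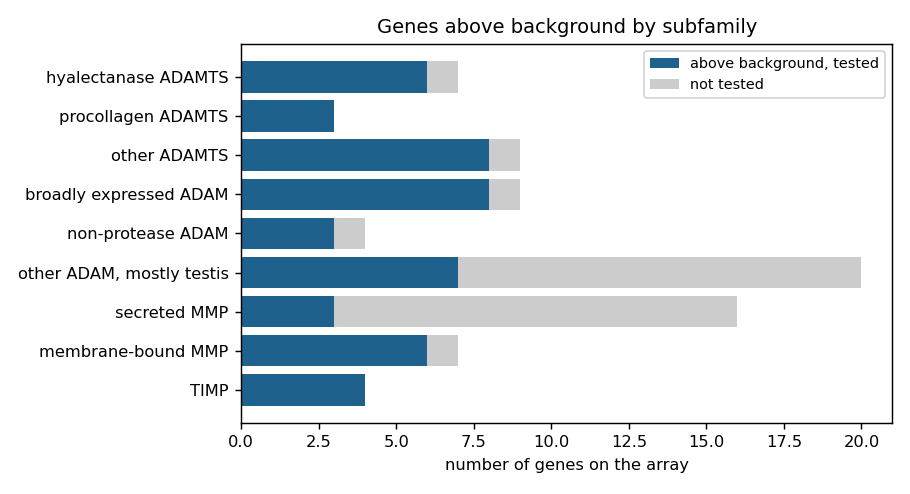
Number of genes on the array (horizontal axis) in each subfamily, with dark bars for genes that were above background and tested and grey bars for those not tested. All 3 procollagen ADAMTS genes and all 4 TIMP genes were tested, against 3 of 16 secreted MMP genes.

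Several members lie close together in the genome, and neighbours were not always alike in detection. Within 415 kb of chromosome 9 (mm9, 7282762 to 7697700) lie the probes of 10 secreted MMPs, and none of these genes had a spot above background. They are the collagenases Mmp1a, Mmp1b, Mmp8 and Mmp13, the stromelysins Mmp3 and Mmp10, matrilysin (Mmp7), the macrophage elastase Mmp12, the enamel protease Mmp20, and Mmp27. On chromosome 8, Adam24, Adam25, Adam20 and Adam39 lie within 145 kb and none was tested. In a second stretch of that chromosome, 348 kb long, Adam5, Adam32 and Adam9 were tested while Adam18 and Adam3 were not. In another stretch, of 131 kb, Adam26b was tested while Adam26a and Adam34 were not. The neighbours Adamts1 and Adamts5 on chromosome 16, and Adamts15 and Adamts8 on chromosome 9, were all tested. Members here were grouped where neighbouring probes lay at most 500 kb apart.

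The hyalectanases are the ADAMTS enzymes that cut versican, aggrecan and related proteoglycans. All 6 that were tested had a mean log2 ratio below 0, as had 51.6% of all genes tested, and none passed. Their median was -0.23, with -0.26 on replicate 1 and -0.21 on replicate 2. Adamts15 had levels of 12.92 and 12.69 in the knockout channels of replicates 1 and 2, against 13.28 and 13.03 in the control channels. The knockout channels were the lower ones, without overlap, and the ratios of -0.37 and -0.34 nearly coincided (mean -0.35 ± 0.018, SD, n = 2, limma adjusted p = 0.71, 95% interval -0.62 to -0.090). Adamts1, which also acts in ovulation, read -0.13 and -0.37 on the 2 arrays, with 13.95 and 13.71 in knockout against 14.08 and 14.08 in control, again without overlap. Adamts4 and Adamts5 are the aggrecanases studied in cartilage. Adamts4 had 11.05 and 10.95 in knockout, against 11.36 and 11.10 in control, a mean ratio of -0.23 ± 0.11, and Adamts5 had 8.83 and 8.91 in knockout, against 9.04 and 9.01 in control, a mean of -0.15 ± 0.077. In both genes the knockout channels were the lower ones without overlap, although the second Adamts5 probe averaged 0.011. Both knockout levels lay below both control levels for 15.3% of all genes tested. Adamts8 read -0.48 on replicate 1 and 0.017 on replicate 2, and Adamts9 0.012 and -0.28, so that each had 1 array near 0 and overlapping levels. Adamts20, a melanoblast migration gene in the mouse, was not tested.

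The 3 procollagen N-propeptidases remove the amino-terminal propeptide of fibrillar procollagens. All 3 had ratios below 0 on both arrays, as had 24.6% of all genes tested, and none passed. Their median was -0.20, with -0.15 on replicate 1 and -0.26 on replicate 2. For Adamts2 the levels were 12.65 and 12.28 in knockout, against 12.78 and 12.77 in control, a mean ratio of -0.31 ± 0.25 (SD, n = 2, limma adjusted p = 1.00, 95% interval -0.60 to -0.016). Its gap was larger on replicate 2 than on replicate 1, and its second probe, which was dim, averaged -0.048. Adamts14 had 11.55 and 11.37 in knockout, against 11.70 and 11.62 in control, and averaged -0.20 ± 0.078. Adamts3 had 6.98 and 7.04 in knockout, against 7.25 and 7.04 in control, and averaged -0.14 ± 0.19. Its used probe was dim, its other probe had no spot above background, and its mean was -0.44 with Agilent's processed signals. The knockout levels of all 3 genes lay below their control levels, as for 15.3% of all genes tested, and for Adamts3 the ratio on replicate 2 was only -0.0036.

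Among the 8 other tested ADAMTS genes, Adamts16 passed and 7 did not, and the means were split, with 4 below and 4 above 0, beside the 51.6% of all genes tested with a mean below 0. Adamts18, an ADAMTS with a role in branching epithelia, read -0.42 and -0.17, a mean of -0.30 ± 0.17, with levels of 9.17 and 9.31 in knockout against 9.58 and 9.49 in control. Adamts19 was the tested member with the highest mean ratio, 0.23 ± 0.14 (SD, n = 2, limma adjusted p = 1.00). It had 10.52 and 10.64 in knockout, against 10.38 and 10.31 in control. Adamts19 was the 1 member whose knockout levels both lay above its control levels, as for 2780 of all 20104 genes tested. Adamts7, an enzyme that cuts cartilage oligomeric matrix protein, read -0.50 on replicate 1 and 0.078 on replicate 2. Adamts10, which binds fibrillin and is mutated in Weill-Marchesani syndrome of humans, read 0.21 and -0.21, and its mean of 0.00087 lay on either side of 0 depending on the setting. Adamts6 and Adamts12 averaged 0.064 ± 0.093 and 0.024 ± 0.11, and Adamts17 averaged -0.070 ± 0.22. Adamts13, the plasma protease of von Willebrand factor, was not tested.

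**Figure D4:**
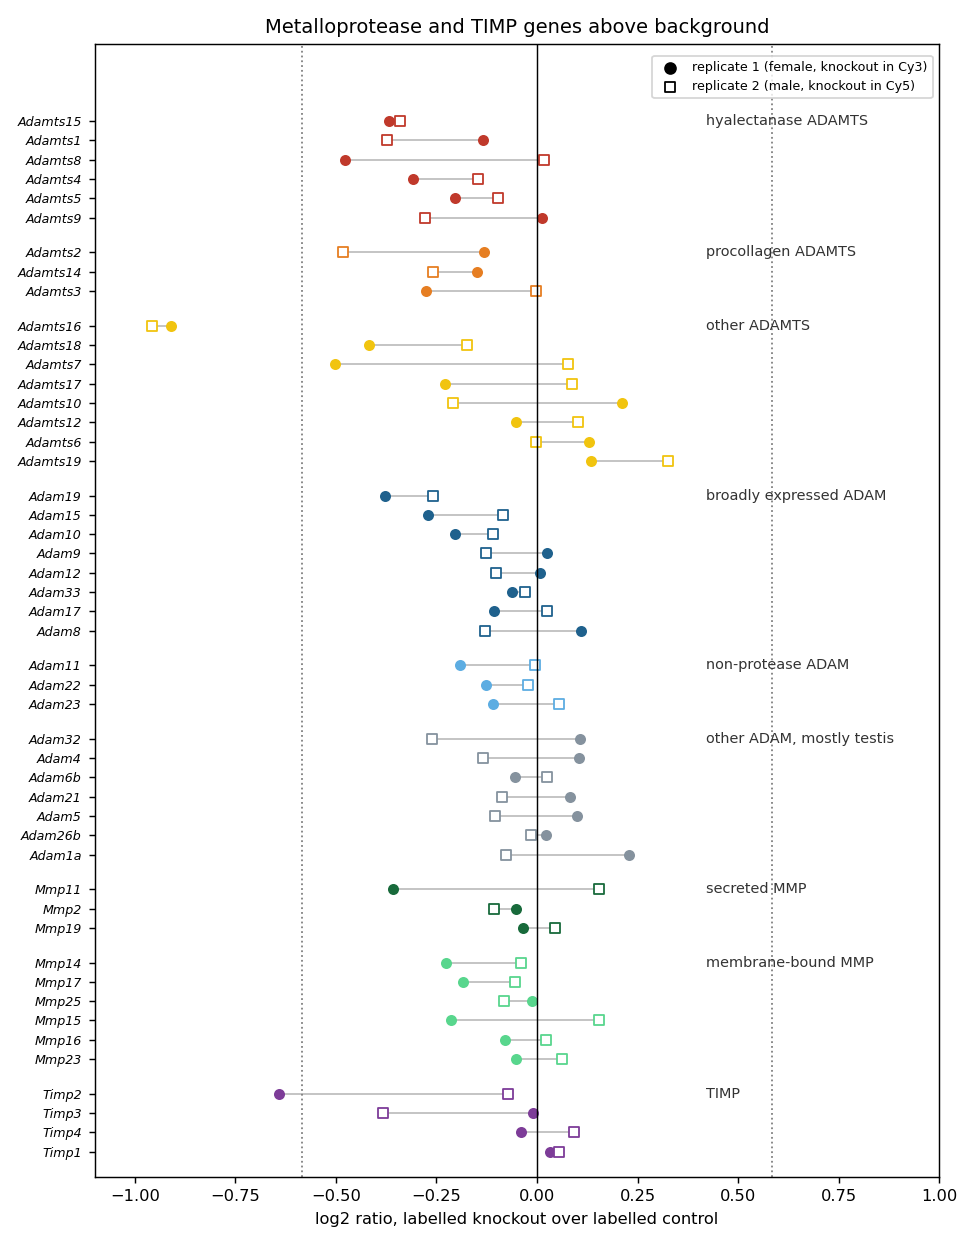
Log2 ratio of labelled knockout over labelled control (horizontal axis) of the 48 tested members, with filled circles for replicate 1, open squares for replicate 2, colours and gaps for subfamilies, and dotted lines at 1.5-fold in either direction. Adamts16 is beyond the dotted line on both arrays, while Timp2 is beyond it on replicate 1 and near 0 on replicate 2.

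The broadly expressed ADAMs include the sheddases that release ligands of the EGF family and cut NOTCH receptors. All 8 tested had a mean ratio below 0, against 51.6% of all genes tested, and none passed. On both arrays 4 of the 8 lay below 0, against 24.6% of all genes tested. Adam19, a sheddase known from heart development, had 13.00 and 13.00 in knockout, against 13.37 and 13.26 in control. The knockout channels were lower on both arrays, with a mean ratio of -0.32 ± 0.085 (SD, n = 2, limma adjusted p = 0.924, 95% interval -0.59 to -0.050). Adam10, the protease that cuts ligand-bound NOTCH, had 13.96 and 13.96 in knockout, against 14.16 and 14.07 in control, and a mean ratio of -0.16 ± 0.068. Adam15, which is found at cell junctions, had 14.18 and 14.15 in knockout, against 14.45 and 14.23 in control, and a mean ratio of -0.18 ± 0.13. Neither overlapped between the genotypes, with knockout below control as for 15.3% of all genes tested. Adam17, which sheds tumour necrosis factor and EGF-receptor ligands, had overlapping levels and averaged -0.041 ± 0.094 with an interval of -0.31 to 0.23, and its second probe averaged 0.029. Adam9 averaged -0.050 ± 0.11, Adam33 -0.046 ± 0.023 and Adam8 -0.0097 ± 0.17. Adam12 averaged -0.047 ± 0.076 through its used probe, 0.085 through another and 0.019 as the mean over its probes. Adam28 was not tested.

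Adam11, Adam22 and Adam23, nervous system proteins that bind partners rather than cut them, averaged -0.098 ± 0.13, -0.075 ± 0.073 and -0.028 ± 0.12, and none passed. Adam7 of that list, known from the epididymis, was not tested. The 20 remaining ADAMs, most of them known from testis and sperm, gave 7 tested genes, with means from -0.078 (Adam32) to 0.075 (Adam1a) and a median of -0.0032, with 0.10 on replicate 1 and -0.088 on replicate 2. None passed. All 7 had opposite signs on the 2 arrays, as had 10788 of all 20104 genes tested. Of the 7, 6 were brighter in Cy3 than in Cy5 on both arrays, as were 26.5% of all genes tested. Adam4, Adam6b, Adam21 and Adam26b were dim, with mean levels of 7.22, 7.31, 7.33 and 7.20 in knockout. Adam4 averaged -0.016 ± 0.17, Adam6b -0.016 ± 0.056 and Adam5 -0.0026 ± 0.15. Adam21 and Adam26b lay within the same range. The 13 untested genes of this group were Adam1b, Adam2, Adam3, Adam6a, Adam18, Adam20, Adam24, Adam25, Adam26a, Adam29, Adam30, Adam34 and Adam39. Adam2 is a sperm membrane protein. The female array had the knockout in Cy3 and the male array in Cy5, so sex and dye cannot be told apart in these opposite signs. Adam26a and Adam26b, Adam6a and Adam6b, and Adam1a and Adam1b are close copies, and whether a probe of either reads the other was not tested. In each pair a single gene, Adam26b, Adam6b or Adam1a, was above background by the rule used.

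Of the MMPs, 3 of 16 secreted and 6 of 7 membrane-bound ones were tested, and none passed in either direction. Mmp2, gelatinase A, had 13.47 and 13.39 in knockout, against 13.52 and 13.49 in control. Its knockout levels lay just below its control levels, as for 15.3% of all genes tested. The mean ratio was -0.079 ± 0.038 (SD, n = 2, limma adjusted p = 1.00, 95% interval -0.34 to 0.19). Mmp11, also called stromelysin 3, read -0.36 on replicate 1 and 0.15 on replicate 2. Mmp14, the membrane protease that activates pro-MMP2, averaged -0.13 ± 0.13 with levels of 11.30 and 11.26 in knockout, against 11.53 and 11.30 in control, which overlap. Mmp17, which is anchored in the membrane by a lipid, averaged -0.12 ± 0.091, Mmp25 -0.048 ± 0.049, Mmp15 -0.030 ± 0.26, Mmp16 -0.029 ± 0.074, Mmp23 0.0048 ± 0.080 and the secreted Mmp19 0.0056 ± 0.056. Outside the chromosome 9 group, Mmp9, Mmp21, Mmp24 and Mmp28 were not tested. Mmp9, gelatinase B, and Mmp12 of macrophages had no spot above background, while all 8 macrophage markers of a fixed list were above background. At an unadjusted p under 0.05 the count of MMPs was also 0.

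The TIMP genes were all above background. Timp2, which inhibits MMPs and takes part in pro-MMP2 activation, had 15.92 and 16.12 in knockout, against 16.56 and 16.20 in control. Its knockout levels lay below its control levels, but the ratio was -0.64 on replicate 1 and -0.072 on replicate 2 (mean -0.36 ± 0.40, SD, n = 2, limma adjusted p = 1.00, 95% interval -0.69 to -0.026). Timp3, the TIMP that binds to matrix, showed its gap on replicate 2, with 15.52 and 15.20 in knockout against 15.53 and 15.58 in control, ratios of -0.0095 and -0.38 and a mean of -0.20 ± 0.26. Its levels did not overlap either, though they nearly met on replicate 1. Knockout levels below control levels without overlap were found for 15.3% of all genes tested. Timp1 averaged 0.044 ± 0.016 (95% interval -0.22 to 0.31), with 12.74 and 12.80 in knockout against 12.71 and 12.74 in control, which overlap. Timp4 averaged 0.027 ± 0.093. No TIMP gene passed the test.

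Across the tested members, 21 of 48 had a ratio below 0 on both arrays, against 24.6% of all genes tested, and 2, Adamts19 and Timp1, had a ratio above 0 on both, against 21.7% of all genes. Both knockout levels lay below both control levels for 16 of the 48, against 15.3% of all genes, and 9 of these 16 were ADAMTS genes, 4 were ADAMs (Adam10, Adam15, Adam19 and Adam22), 1 was Mmp2, and 2 were Timp2 and Timp3. Of 17 members with several kept probes, 6 had probes with means on both sides of 0: Adam5, Adam12, Adam17, Adamts5, Adamts10 and Adamts17. The median ratio over 17 ADAMTS was -0.20, with -0.21 on replicate 1 and -0.15 on replicate 2. Over 18 ADAMs it was -0.043, with -0.025 on replicate 1 and -0.086 on replicate 2. Over 9 MMPs it was -0.048, with -0.081 on replicate 1 and 0.023 on replicate 2, so the sign of the MMP median differed between the arrays. With a threshold of 0.05 on the unadjusted p, 6 of the 48 members lay below it, each with a mean below 0, and 914 of all genes did (4.55%). These 6 were Adamts16, Timp2, Adamts15, Adam19, Adamts2 and Adamts18. That count depended on the processing, and was 1 with median centring, 2 with the mean over probes, and 4 with dim probes kept or with a trended prior. The members share the hybridisations and tissue samples, so these counts describe the 2 arrays and carry no test.

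**Figure D5:**
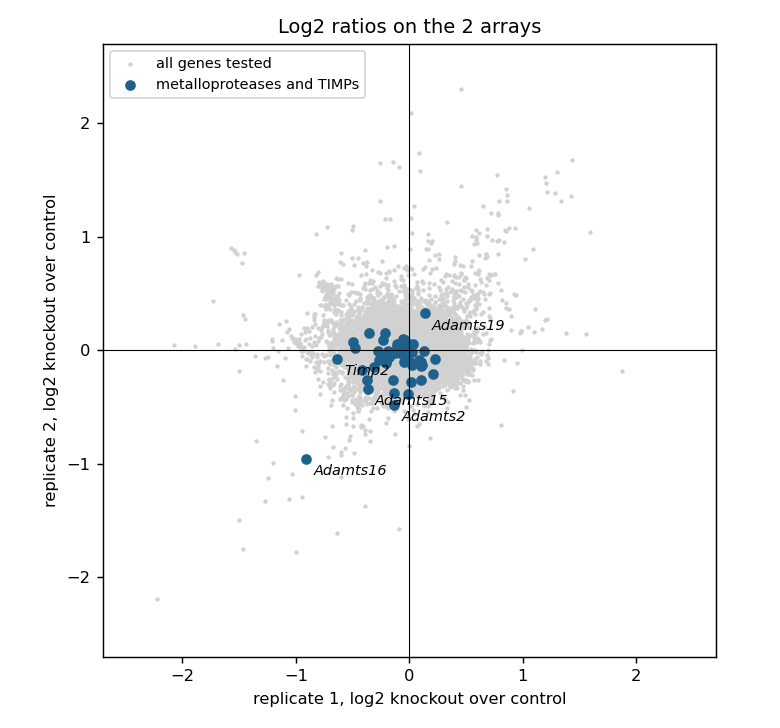
Log2 ratio of labelled knockout over labelled control on replicate 1 (horizontal axis) against replicate 2 (vertical axis), with grey points for all 20104 genes tested and blue points for the 48 tested members. The members cluster near the origin, more of them to the lower left than to the upper right, and Adamts16 stands apart at -0.91 and -0.96.

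Genes that act with these proteases were read from lists fitted over all genes, and no tested gene of these lists passed in limma; at an unadjusted p under 0.05 there was 1, Adamtsl1. Among ADAMTS-like proteins and papilin, matrix proteins without a protease domain, 6 were tested with a median of -0.16, which came from replicate 1 (-0.32) and not from replicate 2 (0.021). Adamtsl1 read -0.29 ± 0.0021 (SD, n = 2) and Thsd4, which promotes fibrillin fibres, -0.20 ± 0.34. The 4 astacin and procollagen C-propeptide genes had a median of -0.081, here from replicate 2 (-0.19) and not from replicate 1 (-0.0021), with the enhancer Pcolce at -0.20 ± 0.20 and Bmp1, the C-propeptidase, at -0.14 ± 0.33. Among 13 regulators of these proteases the median was -0.14, with -0.19 on replicate 1 and 0.0076 on replicate 2. Furin, the convertase that activates many of these enzymes, averaged -0.22 ± 0.25 and Tspan15, a tetraspanin partner of ADAM10, -0.18 ± 0.26. The 7 hyalectan genes and partners had a median of -0.039 (-0.091 on replicate 1 and -0.040 on replicate 2), with the hyaluronan synthase Has2 at -0.22 ± 0.15 and Hapln3 at -0.20 ± 0.022. The 9 other matrix-degrading proteases had a median of 0.026 (0.051 on replicate 1 and -0.030 on replicate 2), with Plau, the urokinase, at 0.13 ± 0.12 and Ctsk, cathepsin K, at -0.10 ± 0.063.

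Smad4 itself had 14.28 and 14.44 in the knockout channels, against 14.86 and 14.52 in the control channels, a mean log2 ratio of -0.33 ± 0.36 (SD, n = 2) that did not pass (limma adjusted p = 1.00). Whether its probe lies in the deleted part was not determined here. Markers of several cell types were measured beside the members. All 10 urothelium markers and all 8 of ureteric mesenchyme and smooth muscle were above background, as the labelled tissue has both. The 10 urothelium markers had a median log2 ratio of 0.42, 3 of them passed as higher in labelled knockout, and their summed normalised intensity was 169400 and 154800 in knockout, against 143000 and 132000 in control. That sum, taken on the linear scale, is weighted to the brightest marker, Krt18, with log2 levels of 16.72 and 16.64 in knockout and a mean ratio of 0.065. The 5 fibroblast markers had a median of -0.23, with -0.14 on replicate 1 and 0.048 on replicate 2. Col1a1, Col1a2 and Col3a1 averaged -0.48, -0.41 and -0.23, while Dcn and Lum averaged 0.29 and 0.036. Their summed intensity was 587700 and 630600 in knockout, against 706700 and 642200 in control. The median was 0.048 for ureteric mesenchyme and smooth muscle, 0.11 for macrophage, -0.034 for endothelium and 0.50 for skeletal muscle markers, and no gene of these lists passed. The endothelium median was 0.065 on replicate 1 and -0.20 on replicate 2, and the skeletal muscle median was 0.61 and 0.15. Neuron and glia markers had a median of -0.54 on replicate 1 and 0.71 on replicate 2. Of the testis germ cell markers 5 of 8 were tested, with a median of 0.028, and Odf1, Akap4 and Dazl were not above background. Prm1 passed as lower in labelled knockout at -2.21 and Tnp2 averaged -0.39 without passing. Prm2, Tnp1 and Ddx4 averaged 0.028, 0.060 and 0.077. The part of any of these cells in the values of Adamts16 and the other members was not tested.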

How the data were processed

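The labels' protocols name total RNA of dissected ureters, 150 ng as input, labelled in Cy3 or Cy5. The authors' deposited intensity values hold mean signal, local background and processed signal of each spot, per the file headers, and the same files carry the scanner software's log10 ratio of the channels. The scanner images were read with Agilent Feature Extraction 10.7.3.1, as the submitters' processing notes record. The deposited table of the series is a score, a signed fold per probe, with scaling and centring not given in the sources used here. On a log scale it correlated with knockout over control at -0.822 and -0.739 on replicates 1 and 2, and its median was 1 on each.

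Values computed here were corrected by normexp (offset 50), loess-normalised within each array (control spots had weight 0) and averaged over the 4 spots of a probe without outlier spots (3.52% and 3.66%). No spot was saturated. Channel levels were then quantile-normalised in mean intensity between arrays. Signs were turned to knockout over control. A probe was kept with at least 2 spots well above background on both arrays in at least 1 genotype (26522 of 39429), and a gene was its brightest kept probe. Spots above background were 69.0% and 66.6% in knockout and 67.4% and 68.5% in control. Names were updated through RefSeq (GRCm38.p6, names only): 28328 probes through their accession, 3400 through a current symbol and 243 through an old one. No member was renamed.

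In R 4.3.3, limma 3.58.1 set the 2 log2 ratios of a gene against 0 in a two-sided test. P-values were adjusted after Benjamini and Hochberg over 20104 genes, and the prior had 9.21 degrees of freedom. The fit was tested on simulated data. Named are members that passed or were at least 1.5-fold apart on both arrays, up to 4 per subfamily with the largest absolute mean, the TIMP genes, members with kept probes on both sides of 0, and up to 2 genes per related list; the other tested members are named after their values were seen. Members and lists were chosen with earlier results of these data known. Plots were drawn with matplotlib 3.10.9.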

Additional observations from a re-analysis of the deposited data

How the results depend on the processing

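The median of the tested members was -0.059 with median centring, -0.030 with dim probes kept, -0.050 with the mean over probes and -0.096 with the deposited values, against -0.073 as reported. It was between -0.094 and -0.075 on a single array. The count of members that passed was 0 with median centring, 0 with dim probes kept, 0 with the other Adamts16 probe, against 1 as reported, and 1 under the remaining alternatives with a test. Adamts16 read -0.93 with median centring (limma adjusted p = 1.00), -0.93 with dim probes kept (adjusted p = 0.415) and -0.18 with its other probe (adjusted p = 1.00), an alternative chosen after seeing the data. That other probe was not above background, so its value cannot be set against that of the used probe. On a single array, between 1 and 2 members were at least 1.5-fold apart, the second on replicate 1 being Timp2, and with the processing as reported 0 were 2-fold apart on both arrays. Over all genes, 66 passed as reported, 246 with processed signals, 131 with an offset of 0, 156 with a trended prior, 191 with the deposited values, 29 with unpaired channels and 0 with median centring or with dim probes kept. Signs turned for Adam4 with processed signals (0.011), for Adamts10 with an offset of 0 (-0.00011) and the mean over probes (-0.022), for Adam5 with median centring (0.011) and the mean over probes (0.035), for Adam12 with the mean over probes (0.019), for Mmp19 with median centring (-0.017) and deposited values (-0.064), and for Timp4 with deposited values (-0.022). Of 341 values of the 38 members other than Adamts16 named by the rule, under alternatives with a test, 332 kept their direction, and none of the 341 passed. The cause of these shifts was not tested. Signal over background limits Adamts16, whose dimmer probe was below background, and the 31 members not tested. The reported test is paired, since each array pairs a knockout with a control sample; without that pairing, with the 4 channels as unpaired samples, Adamts16 passed (log2 -0.93, adjusted p = 0.0220), 1 member passed and the median was -0.073.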
